A study of Homo sapiens with 2 samples.

Results

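The SWI/SNF chromatin remodellers were described through 10 of their subunit genes, chosen by name: ARID1A, ARID1B, ARID2, SMARCA2, SMARCA4, SMARCB1, SMARCC1, SMARCC2, SMARCD1 and PBRM1. All 10 were among the 25105 genes with an input level, and 9 of them carried 75 of the 49746 listed m6A peaks. The cells were Huh-7, a cell line derived from human liver cancer, of wild-type genotype and without treatment. RNA freed of ribosomal RNA was fragmented. Fragments captured by an antibody to N6-methyladenosine (m6A), an adenosine that carries a methyl group within an RNA, made 1 IP library, while fragments taken without antibody made 1 input library. A peak is a region where the authors listed more IP than input reads. Its height is given here as the log2 fold of IP over input from the authors' deposited table, with their adjusted p, and a log2 fold of 1 is 2-fold. Gene levels are FPKM (fragments scaled to transcript length and to library size) of the input. With 1 library of each kind no value has a replicate check or a test across samples, and the FPKM carry no read counts, so depth is unknown.

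SWI/SNF complexes use the energy of ATP to slide or evict nucleosomes, which opens promoters and enhancers to transcription factors. Each complex is built around an ATPase, either SMARCA4 (BRG1) or SMARCA2 (BRM), with a shared core that includes SMARCB1, SMARCC1, SMARCC2 and SMARCD1. The form called BAF contains ARID1A or ARID1B, whereas the form called PBAF contains ARID2 and PBRM1. ARID1A and ARID2 are among the genes mutated in liver cancer, and the authors' annotation placed all 10 genes in the KEGG pathway for hepatocellular carcinoma, which held 140 of the 25105 listed genes. On mRNA, m6A is known to gather near stop codons and in long internal exons, and reader proteins that bind it affect how long a transcript lasts and how well it is translated.

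The extraction text of the labels speaks of adipose RNA, while both titles name Huh-7, and the input library held liver transcripts. All 6 hepatocyte markers checked (AFP, ALB, APOA1, HNF4A, SERPINA1, TTR) were listed, with a summed level of 4660 FPKM, and none of 3 leukocyte genes (CD3E, MS4A1, PTPRC) had a listed level. Endothelial and fibroblast markers summed to 1.33 and 2.79 FPKM, with 1 of 3 and 3 of 3 genes listed.

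The ATPase genes differed most in level. SMARCA4 stood at 15.5 FPKM, higher than 82.9% of the 10536 coding genes at 1 FPKM or more. SMARCA2 stood at 0.0257 FPKM, so that its transcript was close to absent beside that of SMARCA4. Only 2.54% of the 14114 coding genes listed at any level were below it. SMARCA2 had no listed peak. Of 1141 coding genes under 0.1 FPKM, 17.8% had one, so the lack of a peak at this level says little about the mark.

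The other 8 genes lay between 3.48 and 32.9 FPKM. SMARCC1, a scaffold protein of the core, was highest at 32.9 FPKM and SMARCD1, a core subunit that contacts transcription factors, followed at 29.3 FPKM. ARID1A stood at 11.9 FPKM and SMARCC2, the paralog of SMARCC1, at 8.18 FPKM. ARID2 (5.52 FPKM), SMARCB1 (4.88), PBRM1 (3.57) and ARID1B (3.48) were the lowest of the 9 genes that passed 1 FPKM. Neighbours in this order cannot be told apart without replicates. Within the paralog pairs, ARID1A was above ARID1B and SMARCC1 above SMARCC2 in this library.

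**Figure D1:**
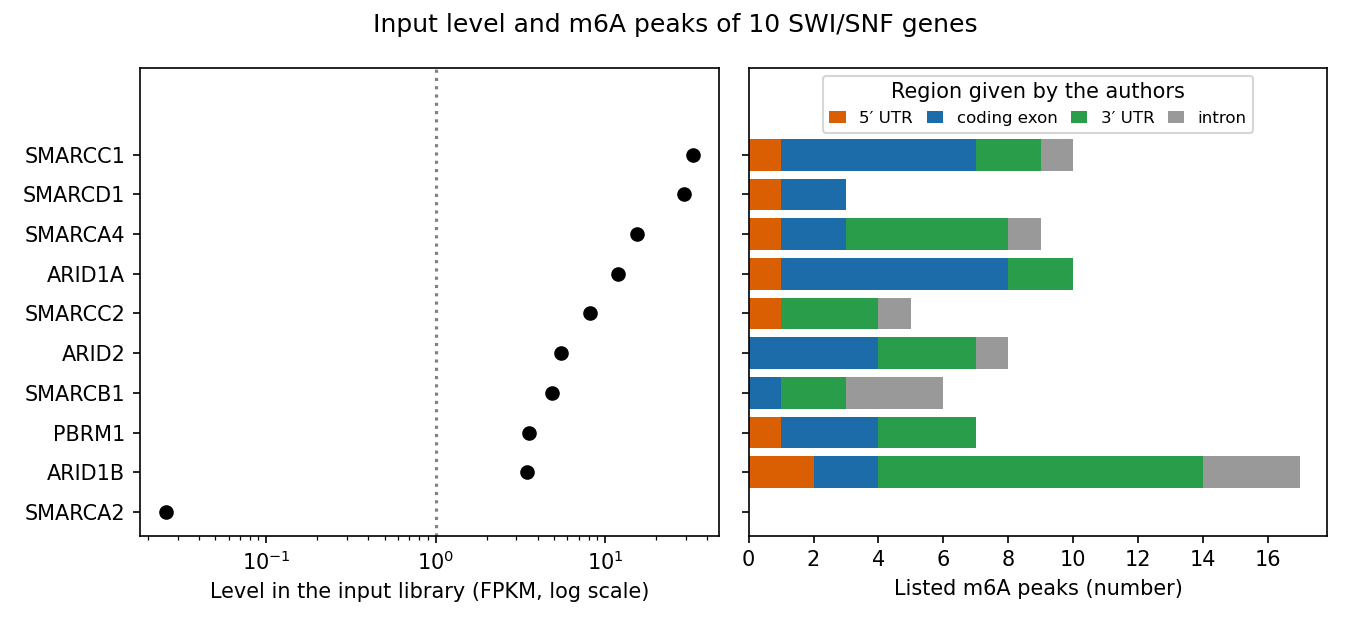
Left, level of each of the 10 SWI/SNF genes in the 1 input library (FPKM, log axis, dotted line at 1 FPKM); right, number of listed m6A peaks, coloured by the region the authors gave them. SMARCA2 stands apart at 0.0257 FPKM with no peak, and ARID1B, the lowest of the others at 3.48 FPKM, has the most peaks, 17.

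Every member at 1 FPKM or more carried a peak, which is near the background. All 9 did, against 96.3% of the 10536 coding genes at that level and 97.7% of the 6483 coding genes within the range of level of the 9. All 9 also had a peak that was both at least 2-fold and under 0.001 in adjusted p, against 67.6% of coding genes and 67.7% of those in the range. A peak of 4-fold or more was listed for 6 of the 9 (ARID1A, ARID1B, ARID2, SMARCC2, SMARCB1 and PBRM1), against 40.7% and 37.5%. For 5 of the 9 such a peak also had an adjusted p under 0.001, against 38.1% and 35.4%. The median log2 fold of the strongest peak was 2.42 over the 9 genes and 1.77 over coding genes with a peak. With peaks of at most 5000 nt alone these medians were 1.59 and 1.56, and 4 of the 9 genes had a 4-fold peak, with no like share of coding genes at hand. Over all their peaks instead, the order turned: the median log2 fold was 0.84 over the 75 peaks and 0.99 over the 39610 peaks of coding genes at 1 FPKM or more. Of the 75 peaks, 12.0% were of 4-fold or more, against 14.2% of the peaks of coding genes. Only 17 of the 75 reached 2-fold with an adjusted p under 0.001 (22.7%, against 29.4%). The median number of peaks was 8 per member, against 3 per coding gene at 1 FPKM or more and 4 in the range of level. A high number was not particular to the members. The median was 9.5 over the 16 other remodeller ATPases described below, and 4 over the other SWI/SNF subunits at 1 FPKM or more. The part of peak number in the values per gene was not tested.

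ARID1B, the BAF subunit that replaces ARID1A in part of the complexes, had the most peaks and the tallest peak of the members. It had 17 peaks, a number that only 22 of the 10536 coding genes (0.209%) reached, over a genomic span of 435 kb, the longest of the 10. Its tallest peak had a log2 fold of 3.93 (15.3-fold, adjusted p listed as 0), higher than in 97.6% of coding genes, those without a peak counted as lower. It was labelled 3′ UTR, ran for 3176 nt on chromosome 6 from 157205998 to 157209173, and ended 1606 nt before the listed end of the gene. Peaks of 1.27 and 1.57 lay before and after it, so that the last stretch of the transcript held a series of peaks. At the other end, 3 peaks followed each other from the 5′ UTR into the coding exons, with log2 folds of 2.60, 2.03 and 1.96. The remaining 11 peaks had log2 folds between 0.53 and 1.75, and 10 of those 11 had an adjusted p over 0.005.

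The 3 peaks at the start of ARID1B overlapped a peak on the opposite strand. It was listed under AL355297, a non-coding gene at 0.332 FPKM, with a log2 fold of 2.61, against 2.60 for the first ARID1B peak. The shared stretch covered all 426 nt of that ARID1B peak. For the third ARID1B peak it was 569 nt of 51531 nt. That peak reached 12.3% of the way through the gene, and where in it the signal sits is not known. The libraries mark strand, per the labels' protocols, but no source used here says how strand entered the peak calls. The gene to which the signal at this start belongs is therefore uncertain.

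ARID1A, the subunit of BAF most often mutated in cancer, had a tall peak near the 3′ end and another that began in the 5′ UTR. Of its 10 peaks, the tallest had a log2 fold of 3.18 (9.07-fold, adjusted p listed as 0), higher than in 89.6% of coding genes, those without a peak counted as lower. It was a 3′ UTR peak between 26779065 and 26781565 on chromosome 1, ending 539 nt before the end of the gene. The second had a log2 fold of 2.48 (adjusted p 1.39e-179), was labelled 5′ UTR, and ran from 26693585 to 26728912. That span of 35328 nt crosses introns, since a peak is listed from its first to its last base, and so it reached 40.1% of the way through the gene, and where in it the signal sits is not known. The 8 peaks between these lay between 0.54 and 0.81. No ARID1A peak overlapped one on the opposite strand. Both BAF genes thus had their tallest peak near the 3′ end. The next tallest of each began in the 5′ UTR, but that of ARID1A cannot be placed within its long span and that of ARID1B is of uncertain gene.

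In the PBAF genes the tallest peak was one labelled coding exon. In ARID2, which directs PBAF to chromatin, it had a log2 fold of 3.27 (9.66-fold, adjusted p 6.33e-239) and was labelled coding exon on chromosome 12 from 45851372 to 45891806. It began 68.2% and ended 90.9% of the way along the gene. The next ARID2 peaks, 2 in the 3′ UTR, had 1.27 and 1.24, a log2 difference of 2.01 from the tallest. In PBRM1, whose bromodomains bind acetylated histones, the tallest peak had a log2 fold of 2.31 (4.96-fold, adjusted p 9.84e-33), also in coding exons, on chromosome 3 from 52609244 to 52617319. It lay close to the middle of the gene, at 51.7% of its span. PBRM1 had a 5′ UTR peak of 1.59 (adjusted p 0.0154) and 3 labelled 3′ UTR between 0.71 and 1.12. ARID2 had no 5′ UTR peak. Both tallest PBAF peaks run across introns, over 40435 nt (ARID2) and 8076 nt (PBRM1), so where in these spans the signal sits is not known. Among peaks of at most 5000 nt, the tallest were 1.27 in the 3′ UTR of ARID2 and 1.59 in the 5′ UTR of PBRM1.

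SMARCA4 had 9 peaks and none at 4-fold. The tallest, with a log2 fold of 1.53 (adjusted p 2.07e-53), was a 3′ UTR peak between 11060182 and 11062270 on chromosome 19. It ended 17156 nt before the end of the gene in the deposited table, but 3 nt before the end of SMARCA4 in RefSeq GRCh38.p14, so by the RefSeq span it is at the very end of the gene. A 5′ UTR peak had 1.39 with an adjusted p of 0.0546. The other 7 lay between 0.58 and 1.22.

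Among the core subunits only SMARCC2 and SMARCB1 passed 4-fold. SMARCC2 had its tallest peak at the 5′ UTR, with a log2 fold of 2.51 (adjusted p 1.49e-11) on chromosome 12 from 56187019 to 56190143. This peak began 576 nt upstream of the listed start of the gene, so part of it lies outside SMARCC2 as annotated. Its other 4 peaks were between 0.43 and 0.91. The 2 of them nearest to the 3′ end overlapped peaks on the opposite strand, where MYL6, a myosin light chain gene, stood at 54.5 FPKM.

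SMARCB1, the core subunit lost in rhabdoid tumours, owed its 4-fold value to a single peak of 376 nt. It was labelled 3′ UTR, lay on chromosome 22 from 23836433 to 23836808, and had a log2 fold of 2.42 (adjusted p 0.00371). A peak of DERL3, a gene on the opposite strand, overlapped it by 195 nt with a log2 fold of 2.41. Over all 3775 pairs of overlapping peaks on opposite strands the median difference in log2 fold was 0.40, and 1.96% differed by 0.01 or less, as this pair and the first ARID1B pair did. The other such pairs of the members differed by more, by 0.58 and 0.65 in ARID1B and by 0.26, 0.06 and 0.06 in SMARCC2. Without the peak that overlaps DERL3, the tallest SMARCB1 peak was an intronic one of 1.28 (adjusted p 0.000468). Introns held 3 of its 6 peaks.

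SMARCC1 and SMARCD1, the most abundant of the 10, had low peaks along their length. SMARCC1 had 10, of which the 6 in coding exons lay between 0.40 and 0.63. Its tallest, 1.56, was intronic with an adjusted p of 0.0352, and the next, 1.53 (adjusted p 0.000399), sat at the last bases of the 3′ UTR. SMARCD1 had 3 peaks, at 1.08 in the 5′ UTR (adjusted p 4.44e-09) and at 0.66 and 0.55 in coding exons. It was the only member with a peak and none in the 3′ UTR.

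**Figure D2:**
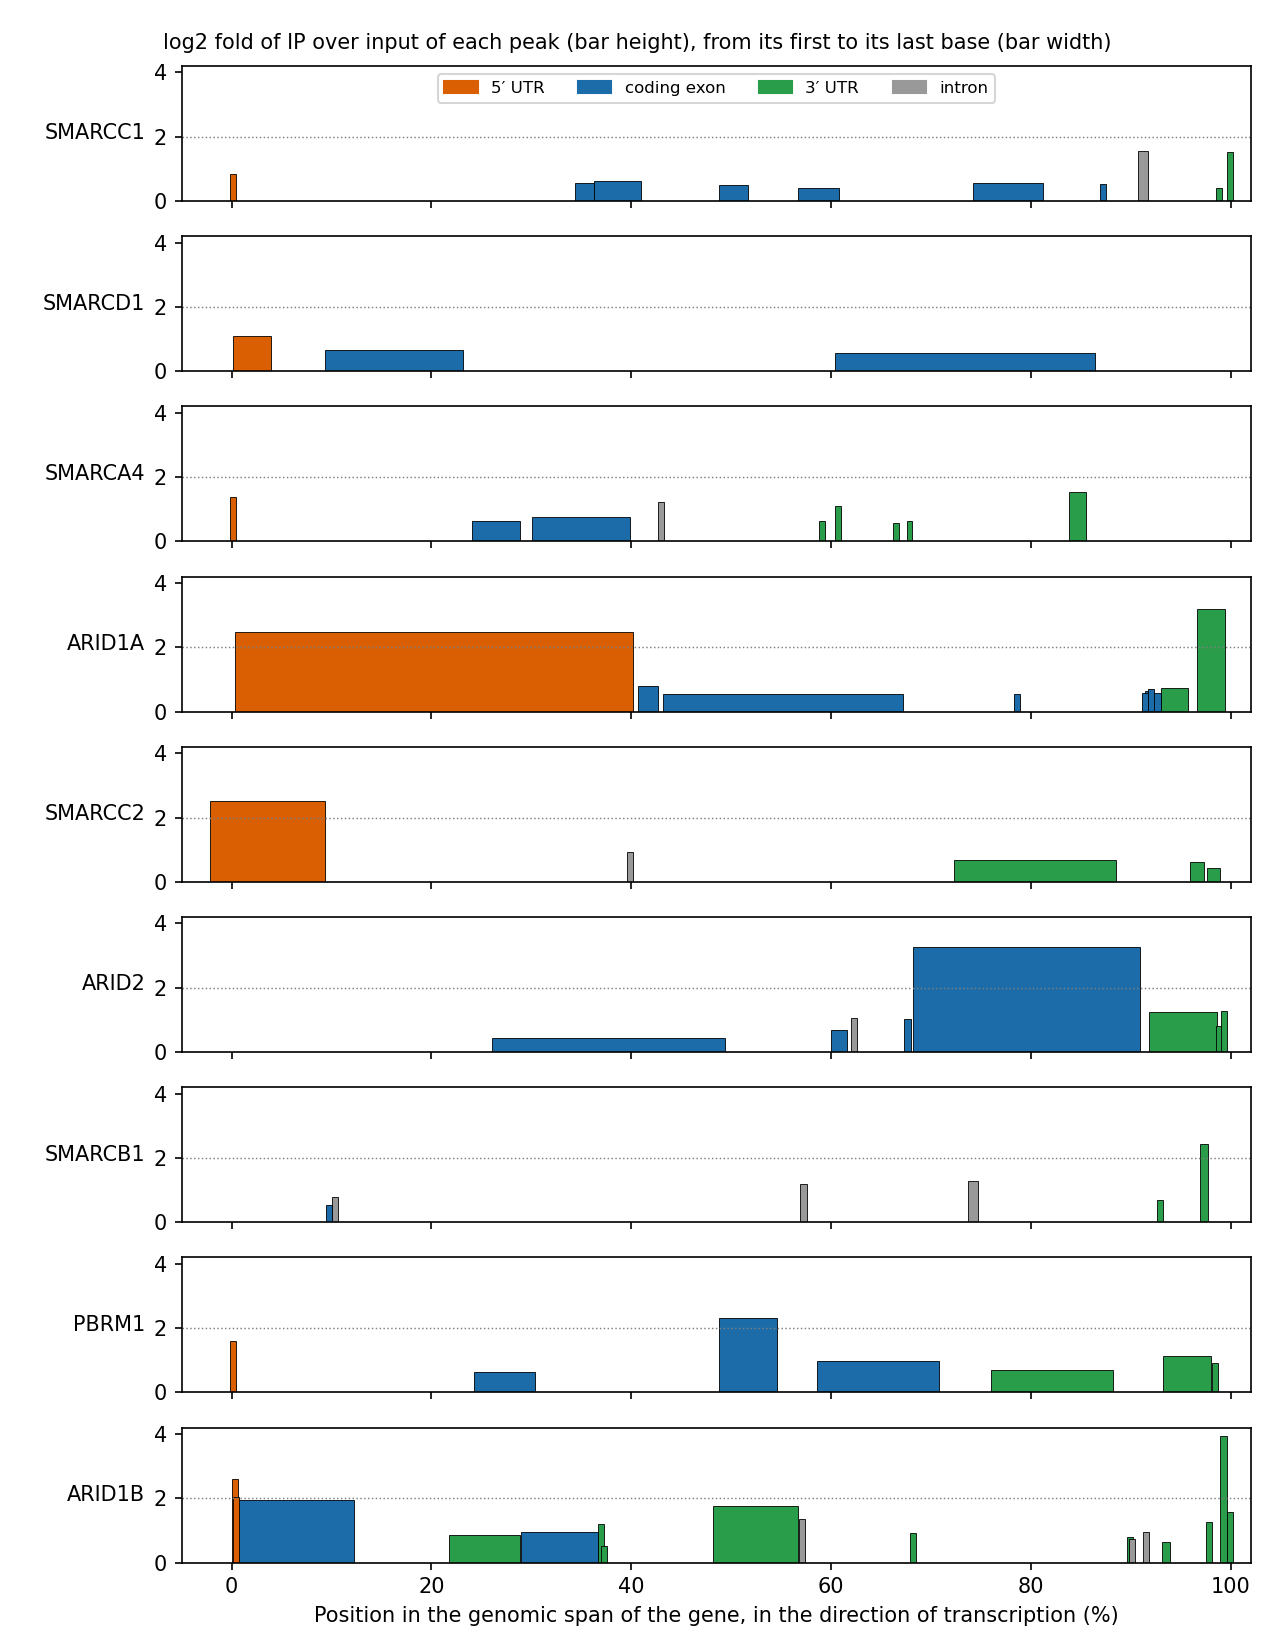
Each panel is 1 of the 9 genes with peaks, ordered by input level, and each bar is a listed peak drawn from its first to its last base along the genomic span of the gene (%, direction of transcription, the shortest widened to be visible); its height is the log2 fold of IP over input, its colour the authors' region, and the dotted line marks 4-fold. The tallest bars of ARID1A and ARID1B lie near the 3′ end and those of ARID2 and PBRM1 are labelled coding exon; wide bars do not place the signal within their span, and the 3 bars at the start of ARID1B overlap a peak on the opposite strand. SMARCC1, SMARCD1 and SMARCA4 stay below 4-fold.

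By the authors' labels, coding exons held 36.0% of the 75 peaks (exact binomial 95% interval 25.2 to 47.9%), against 23.3% of the peaks of coding genes at 1 FPKM or more. Peaks with this label had a median length of 5701 nt in the members and 1932.5 nt in those coding genes. The label does not place the signal of the long ones, so the higher share need not mean more signal in coding exons. The 3′ UTR held 40.0% (28.9 to 52.0%), against 55.5%. Among member peaks of at most 5000 nt alone it held 45.5%, with no like share of coding genes at hand. The 5′ UTR held 10.7% (4.72 to 19.9%), against 14.1%, and introns 13.3% (6.58 to 23.2%), against 6.90%. The intervals cover counting error only and take peaks as independent, while up to 17 of them share a gene. By height the regions fell in another order: the 8 peaks in 5′ UTRs had a median log2 fold of 1.81, the 10 in introns 1.13, the 30 in 3′ UTRs 0.88 and the 27 in coding exons 0.63. Over coding genes the medians were 1.17, 1.09, 1.00 and 0.81 in the same order of regions. Of the 9 peaks at 4-fold or more, 4 were in 5′ UTRs (interval 13.7 to 78.8%), 3 in 3′ UTRs (7.49 to 70.1%) and 2 in coding exons (2.81 to 60.0%). Those of coding genes were in 5′ UTRs in 15.4% of cases, in 3′ UTRs in 65.6% and in coding exons in 13.2%. Of the 9 member peaks, 3 (2 in the 5′ UTR of ARID1B and 1 in the 3′ UTR of SMARCB1) overlapped a peak on the opposite strand, and that of SMARCC2 began outside its gene. Another 3, in ARID1A (5′ UTR), ARID2 and PBRM1 (coding exon), ran over 5000 nt, so their signal cannot be placed.

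The label 3′ UTR did not always mean the end of the main transcript. Of the 30 member peaks with that label, 13 (43.3%, 25.5 to 62.6%) had been assigned through a transcript of the biotype nonsense-mediated decay, in which an early stop codon turns downstream exons into 3′ UTR. Over the peaks of coding genes the share was 25.1%. Midpoints of these 13 lay between 59.1 and 99.3% of the gene's span, and 6 of them in its last 10%. In SMARCA4, 4 of 5 peaks called 3′ UTR were of this kind, and in ARID1B 4 of 10. Both tallest BAF peaks carried such a label too, but at 98.0% (ARID1A) and 99.3% (ARID1B) of the span. With these 13 labels not counted, the 3′ UTR share was 22.7% for the members and 41.6% for the peaks of coding genes. The remaining 17 labels came through protein-coding transcripts, with midpoints from 25.3 to 99.9% of the span and 11 in its last 10%. They too did not always mean the 3′ end of the gene. By position alone, 32.0% of the 75 midpoints (21.7 to 43.8%) lay in the last 10% of the gene and 12.0% (5.64 to 21.6%) in the first 10%, against 35.7 and 8.34% for coding genes. All positions use the deposited spans, by which the SMARCA4 peak at the RefSeq end lay at 84.6%, outside the last 10%.

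**Figure D3:**
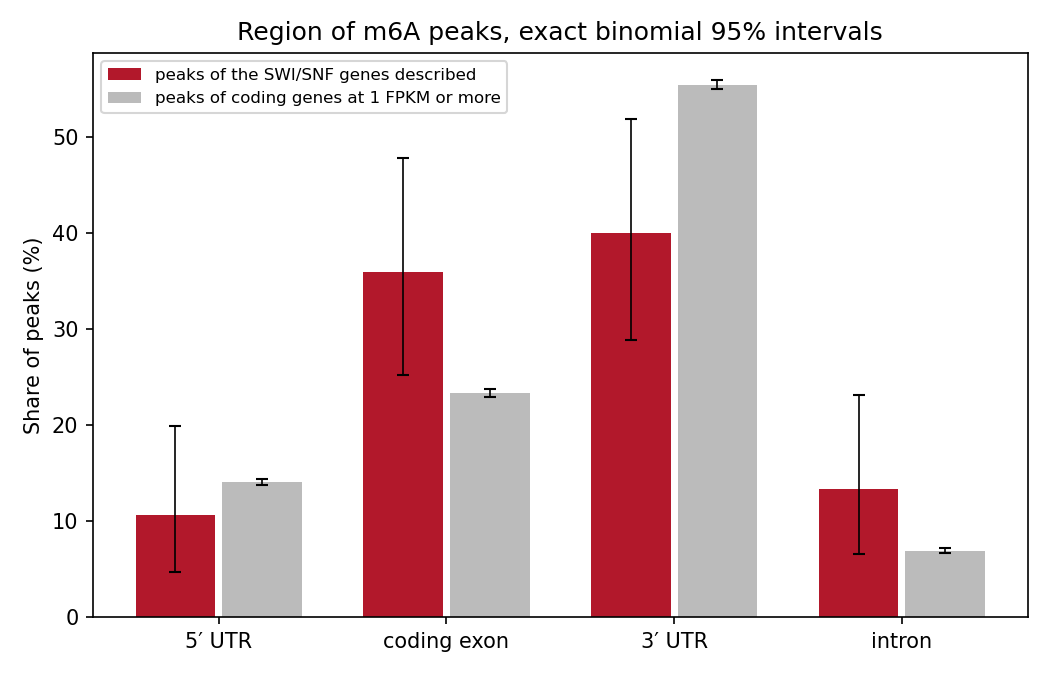
Share (%) of peaks in each region for the 75 member peaks (red) and the 39610 peaks of coding genes at 1 FPKM or more (grey), with exact binomial 95% intervals that cover counting error only. The coding exon share is 36.0% against 23.3% and the 3′ UTR share 40.0% against 55.5%. Peaks labelled coding exon have a median length of 5701 nt against 1932.5 nt, and the label does not place the signal of long ones.

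Among all listed peaks, those of 4-fold or more were in the members of lower level. The 3 genes between 15.5 and 32.9 FPKM (SMARCA4, SMARCD1, SMARCC1) had strongest peaks with log2 folds of 1.08 to 1.56. The 6 genes between 3.48 and 11.9 FPKM had 2.31 to 3.93, and these groups, set apart by level after the values were seen, did not overlap. In other settings, applied to these groups after the values were seen, they did. Without peaks that overlap one on the opposite strand, SMARCB1 stood at 1.28, and with peaks of at most 5000 nt alone ARID2 stood at 1.27, both inside the range of the 3 genes of higher level. Coding genes behaved alike to a lesser extent: their median strongest peak was 1.29 in the first range of level, where 24.4% had a 4-fold peak, and 1.76 in the second, where 41.7% had. The part of input level in the heights was not tested.

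Sequence around transcript starts was available from RefSeq (GRCh38.p14) for 7 of the 10 genes, as 13 windows of 250 bases before to 50 after a start. The core of the m6A consensus, GGAC, was searched on the transcript strand, with the fuller GGACT, which contains it. GGAC was in 9 of 13 member windows, against 66.3% of all 35116 windows, and GGACT in 3 of 13, against 25.3%. Such a match is a description and not a modified site. In the part of these windows that a member peak covered, GGAC occurred in ARID1B and PBRM1, and a GGACT lay just outside the edge of the PBRM1 5′ UTR peak. These sites are shown because they are the readable sequence under or beside 5′ peaks, with the motif in capitals. The ARID1B site (chr6:156777278-156777307, plus strand) is 87 bases upstream of a RefSeq start and lies under the peak shared with the opposite strand. The PBRM1 sites (chr3:52685622-52685651 and chr3:52685902-52685931, minus strand) are 39 and 5 bases upstream of 2 RefSeq starts. The GGACT lies before the first base of PBRM1 in RefSeq (52685913), so by RefSeq it is outside the gene. By the deposited span, whose first base in the direction of transcription is 52685917, the GGACT lies partly inside.
ARID1B GGAC: ggcggcggcccggGGACgagtccagtccgc
PBRM1 GGAC: gccccggccgtggGGACgcgcgggtcgggc
PBRM1 GGACT: cttggcggccgcgGGACTggttttgcggcg
All 3 stretches are rich in G and C. Under the 5′ peaks of ARID1A, SMARCA4 and SMARCD1, the part read from these windows (300, 99 and 168 bases) held no GGAC, which says nothing of the rest of those peaks.

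The rest of the complex also spanned a wide range of peak heights. Of 19 further SWI/SNF subunit genes, 18 were listed and 16 passed 1 FPKM. All 16 had a peak, near the 96.3% of coding genes, and 10 had one that passed both 2-fold and 0.001 in adjusted p, against 67.6%. A 4-fold peak was listed for 9, against 40.7%, with a median strongest log2 fold of 2.20, against 2.42 over the 9 members. BCL7C was highest at 6.64 (adjusted p 0.0019, level 2.16 FPKM) and BCL7A next at 3.25 (adjusted p 1.1e-113, level 2.09 FPKM). Both are genes for small subunits that bind the ATPase module. ACTL6A, an actin-related subunit at 14.2 FPKM, was lowest at 0.65, followed by SMARCD3, the paralog of SMARCD1, at 1.04 (level 3.25 FPKM). DPF1 and DPF3, subunits of neuronal and muscle forms, stood at 0.0106 and 0.0506 FPKM, and ACTL6B was not listed.

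Genes of 16 other remodeller ATPases all passed 1 FPKM, and all 16 had a peak, against 96.3% of coding genes. For 13 a peak passed both 2-fold and 0.001 in adjusted p, against 67.6%, and one of 4-fold for 11, against 40.7%, with a median strongest log2 fold of 2.74. CHD3 (5.59, at 9.31 FPKM) and CHD9 (4.43, at 2.60 FPKM), of the chromodomain helicase family, were highest. SMARCA1 (0.58, at 37.4 FPKM), an ISWI ATPase, and HELLS (0.72, at 19.9 FPKM), which acts in DNA methylation, were lowest. Lists of genes from 1 pair of libraries are no replicates, and no difference between the lists was tested. Whether height went with level within these lists was not tested.

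**Figure D4:**
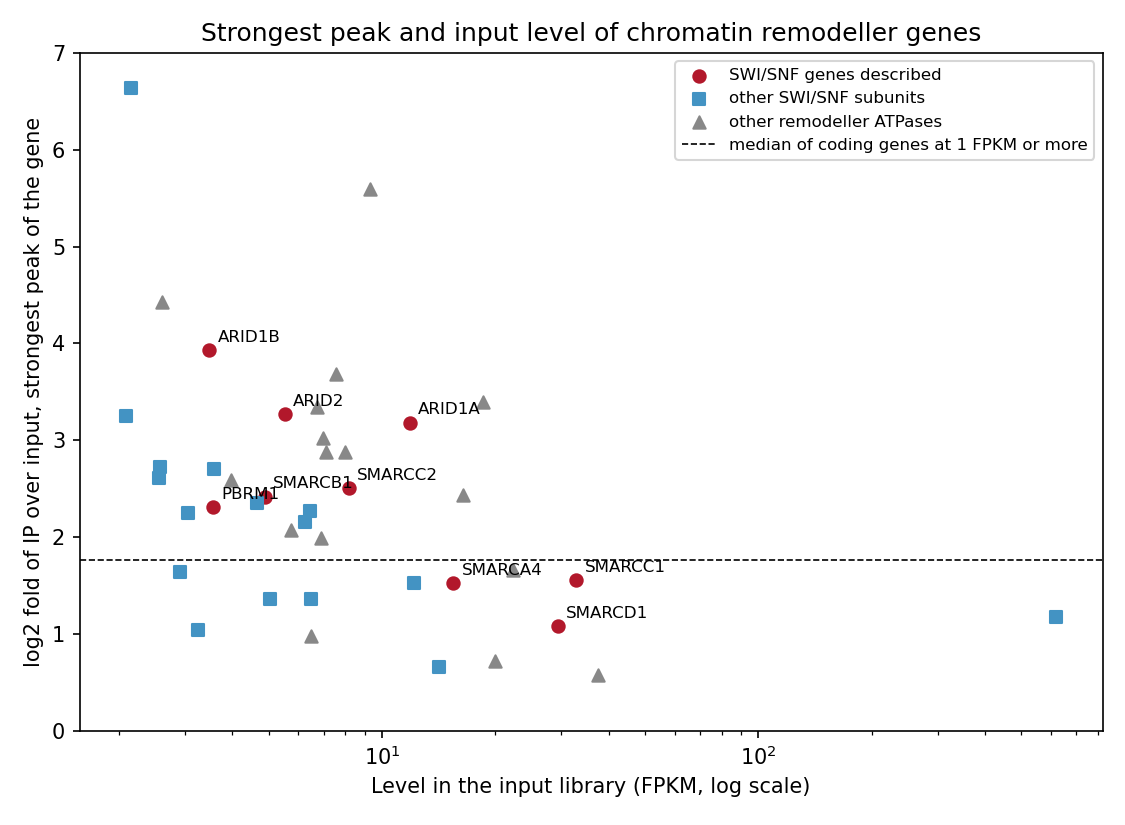
Strongest peak of each gene (log2 fold of IP over input) against its input level (FPKM, log axis) for the 9 members with peaks (red circles), 16 other SWI/SNF subunits (blue squares) and 16 other remodeller ATPases (grey triangles), all at 1 FPKM or more; the dashed line is the median of coding genes, 1.77. SMARCA4, SMARCC1 and SMARCD1 lie below the line and the other 6 members above it.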

How the data were processed

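Per the submitters' processing notes the tools were edgeR, fastp, FastQC, HISAT2, HOMER and StringTie, with no roles named. Their settings, the scaling between the libraries and the build are stated in none of the sources used here. Peaks come from the authors' deposited table, whose columns, per the file headers, hold the log2 fold (IP over input), the p-value (highest 0.0500), the adjusted p-value (highest 0.0635), a region and a gene. All folds were above 1. Levels come from a deposited table that holds, per the file headers, FPKM of the input only, down to 1.78e-07, so neither depth nor IP levels can be given. Peak length, deposited by the authors as whole numbers and treated as a score, equals end minus start plus 1. Gene spans overlapped those of RefSeq GRCh38.p14 by symbol for 99.9% of 19112 genes, and coordinates are printed as in the files.

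Peaks were joined to members by gene name and to all genes by Ensembl ID. Coding status came from RefSeq by symbol or synonym (77.8% of genes have a biotype). Shares carry exact (Clopper-Pearson) 95% intervals. The motif was read only in RefSeq windows at gene starts, not in 3′ UTR peaks as planned. Overlap and position steps were tested on simulated peaks. Python 3.11.15, pandas 2.3.3 and scipy 1.17.1 were used. All members are named with their peaks, and of the wider lists the 2 highest, the 2 lowest and those unlisted or under 1 FPKM. Members and lists were chosen with earlier results of these data known.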

Additional observations from a re-analysis of the deposited data

How the results depend on the processing

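No paired analysis was possible because the design holds 1 IP and 1 input library, and for the same reason no replicate could be left out. Of 51 values recomputed under another setting, 42 stayed within 1.5 times the main count or inside its 95% interval and 9 did not. With an adjusted p under 0.001 the 75 member peaks became 32, with a median log2 fold of 1.06, and under 1e-06 they became 13, with a median of 1.96. With 4-fold in place of 2-fold, 5 of 9 members had a peak with an adjusted p under 0.001, against 38.1% of coding genes. The median over members was 0.76 when a gene was given the median of its peaks. With peaks of at most 5000 nt alone, the median strongest peak over members was 1.59 in place of 2.42, and that over coding genes 1.56 in place of 1.77. The change over members was counted among the 42, although it brought the members close to the coding genes. With 3′ UTR labels from nonsense-mediated decay transcripts not counted, a setting added after the data were seen, the 3′ UTR share was 22.7%. The share of all genes with a peak was 82.1% at 1 FPKM or more, 91.6% at 5 FPKM or more and 58.2% with no minimum. Without peaks running past their gene, 7 of 9 members had a 2-fold peak with an adjusted p under 0.001, since the qualifying peaks of SMARCC2 and SMARCC1 run past the listed span (that of SMARCC1 by 1 base). No share of coding genes in this setting was at hand, and with all peaks it was 67.6%.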
